A study of Mus musculus with 6 samples.

Results

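The retinas of mice given the compound SH-42 were set directly against the retinas of mice given the compound SH-80, with 3 arrays for each compound. These are all 6 arrays of the series, chosen by the compound that the labels name. Every array carries RNA of the retinas of adult male C57BL/6 mice, taken 7 days after an injection into the vitreous of the right eye. The labels give 1 µM for the injections, and a group given phosphate-buffered saline (PBS) served as the control. Each of the groups had 12 mice, and retinas were pooled by 4, so that a pool and not an animal is the unit that was measured. A 2-colour array compares a pair of RNA samples on the same spots, and by the labels the green dye Cy3 marks the RNA of the compound on each array and the red dye Cy5 the RNA of the control. No array had its dyes swapped. SH-42 and SH-80 are code names, and the labels give neither a structure nor a target for them.

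The comparison addresses whether the retina differs between the compounds at a matched dose and time, and it is the 1 pair of compounds that the series allows. It was read in 3 ways: as the difference between the arrays' log2 ratios of Cy3 over Cy5, and as the difference in the log2 signal of Cy3 and of Cy5, each channel by itself. A dye effect that all arrays share cancels in the difference of ratios. The Cy5 channel is labelled control on all 6 arrays, so if the labels hold, its difference is the background against which the other measures are read. Pooling by 4 gives 3 PBS pools from 12 mice against 6 Cy5 channels, so that some control RNA may have been used on arrays of both compounds, which the labels do not state. A difference is given throughout as SH-42 minus SH-80, in log2 units, with its standard error (SE) over 3 arrays a group.

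The retina answers stress or injury through its glia. Müller cells, the glia that span the retina, switch on the filament gene Gfap and with it chemokine and acute-phase genes, while microglia, the resident immune cells, multiply and make complement. The light-sensing rods make up most of the retina's cells, and their signals pass through bipolar cells to ganglion cells, whose axons form the optic nerve. The lens lies on the other side of the vitreous, and its fibre cells are filled with crystallins, proteins that the retina itself makes in smaller amounts. In bulk retina, fewer cells of a type and less RNA per cell cannot be told apart.

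Which channel holds which RNA is given by the labels alone, and whether they hold was not tested. The deposited value table runs the other way, as the log2 ratio of Cy5 over Cy3, on each of the 6 arrays (Pearson r between 0.9995 and 0.9998 with that ratio of the scanner's processed signals over the probes of an array). If the dyes were in fact reversed, every ratio difference given here would turn its sign, and the Cy5 values would be those of the compounds. Between arrays, the Cy3 channels correlated at 0.9966 to 0.9991 over features and the Cy5 channels at 0.9619 to 0.9979. The labelled tissue was borne out in both channels: all 25 rod genes of the marker list were measured, and Gnat1, the transducin of rods, had a log2 signal between 16.84 and 17.8 over all channels and arrays.

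After the filter on dim probes, 24087 features (genes, or probes without a gene symbol) were compared, of which 15943 had a symbol. The share of probes called well above background by the scanner software was 58.3% to 63.1% over the Cy3 channels, and 70.9% to 76.7% over the Cy5 channels. No spot was saturated. The arrays lie on 2 slides: SH-42 replicates 1 and 2 on slide 1, and SH-42 replicate 3 with all 3 SH-80 arrays on slide 2. SH-42 replicate 1 stood apart in Cy5, where its correlation with the other arrays was 0.9619 to 0.9751 over features, against 0.9905 to 0.9979 among the rest. The correlation of its ratios with the other 5 arrays was -0.16 to 0.16, against 0.471 to 0.866 among those 5. Values without it, and within slide 2, are given beside many of the results they bear on. Those within slide 2 rest on SH-42 replicate 3 as the only SH-42 array.

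No feature passed the test between the compounds in any of the 3 measures. The limma test (Benjamini-Hochberg adjusted p under 0.05, two-sided) called 0 of 24087 features (0%) in the ratio, 0 (0%) in Cy3 and 0 (0%) in Cy5, and the smallest adjusted p values were 0.691, 0.521 and 0.701. At an unadjusted p under 0.05, 944 features passed in the ratio (3.92%), 2232 in Cy3 (9.27%) and 869 in Cy5 (3.61%). Leaving out SH-42 replicate 1 gave 0 calls in each measure as well. With 3 arrays a group, an exact permutation test of a single gene cannot go below a two-sided p of 0.1.

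The intervals show how large a difference the arrays could have missed. In Cy3, the channel labelled with the compounds, the 95% interval of the difference lay inside 1.5-fold either way for 23317 features (96.8%) and inside 2-fold for 99.6%. In the ratio, 18118 features (75.2%) lay inside 1.5-fold and 90.7% inside 2-fold. The Cy5 channel, labelled control on both sides, gave nearly the same share as the ratio, with 18226 features (75.7%) inside 1.5-fold. Without SH-42 replicate 1 the shares inside 1.5-fold were 91.3% in the ratio, 96.5% in Cy3 and 93.5% in Cy5. For the other features the interval includes a difference of 1.5-fold or more. The shares moved with the scaling. From the scanner's processed signals, 50.7% of features lay inside 1.5-fold in the ratio and 81.6% in Cy3. An offset of 0 gave 58.8% and 85.9%, median centring 48.6% and 99%, and no background subtraction 77.8% and 96.8%. The deposited table gave 52.7% in the ratio, and no normalization between arrays gave 47.8% in Cy3.

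Most of the difference between the arrays of the compounds lay in the channel labelled control. The SD of the differences over all features was 0.25 in Cy5 and 0.11 in Cy3, and a feature's median SD over the 6 arrays was 0.14 in Cy5 and 0.07 in Cy3. The difference reached 1.5-fold for 795 features in the ratio (3.3%; 46 higher and 749 lower on the SH-42 arrays), for 37 in Cy3 (0.154%; 22 higher, 15 lower) and for 761 in Cy5 (3.16%; 698 higher, 63 lower). Of the 234 features with a ratio difference of at least 2-fold (0.971%), 231 (98.7%) differed more in Cy5 than in Cy3, and 3 reached 1.5-fold in Cy3. Of these 234, 233 had the lower ratio on the SH-42 arrays. The counts at 1.5-fold fell without SH-42 replicate 1, to 164 in the ratio (0.681%) and 150 in Cy5 (0.623%). They rose without SH-42 replicates 2 and 3, to 1469 and 1764 in the ratio and 1463 and 1760 in Cy5. Without SH-80 replicates 1, 2 and 3 the ratio gave 751, 1172 and 659, and Cy5 gave 718, 1120 and 653. The split by direction moved with the scaling, to 769 higher and 1278 lower ratios from the scanner's processed signals, 607 and 1389 from the deposited table and 281 and 1096 with a background offset of 0, and in Cy5 to 1293 higher and 725 lower from the processed signals. In Cy3 it moved to 183 higher and 75 lower with an offset of 0, 8 and 16 with median centring, and 3814 and 11 with no normalization between arrays.

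**Figure D1:**
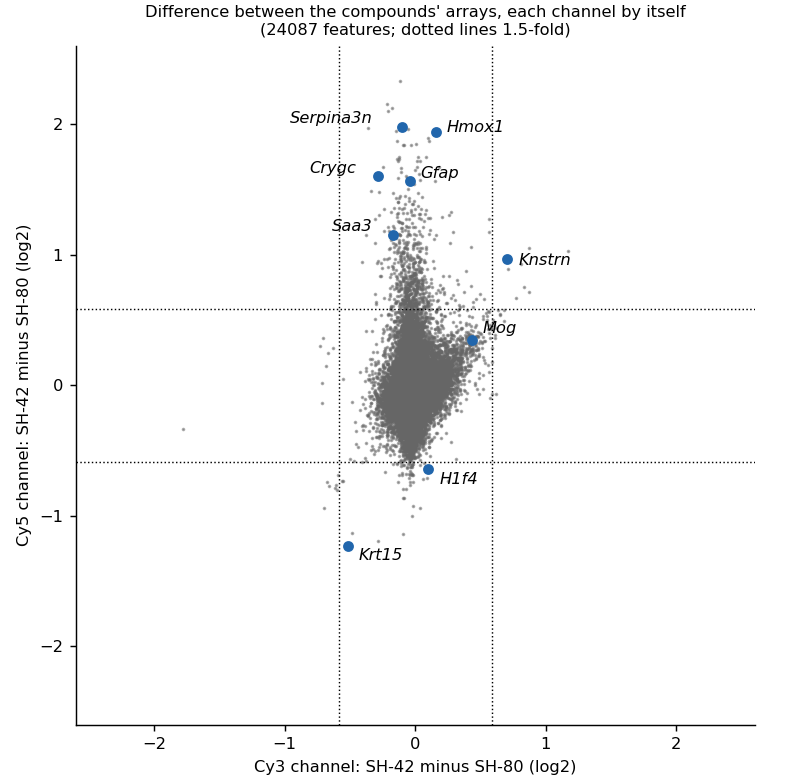
Difference between the SH-42 and SH-80 arrays in the Cy3 channel (horizontal axis, log2) against that in the Cy5 channel (vertical axis, log2), each point 1 of 24087 features and the dotted lines at 1.5-fold. The cloud is drawn out along the Cy5 axis: Hmox1 and Serpina3n lie near 2 in Cy5 and close to 0 in Cy3, while 37 features pass 1.5-fold in Cy3.

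In the Cy3 channel, arrays on the same slide correlated more closely than arrays on different slides. No SH-80 array lies on slide 1, so slide cannot be told apart from the pools on it, which are SH-42 replicates 1 and 2. Correlations over features were 0.9977 to 0.9991 for the 7 pairs of arrays on the same slide and 0.9966 to 0.9974 for the 8 pairs on different slides. SH-42 replicate 3 correlated at 0.9989 to 0.9991 with the SH-80 arrays, which share its slide, and at 0.9969 and 0.9974 with the other SH-42 arrays. In a limma fit with both compound and slide, the slide term passed the adjusted threshold for 34 features in Cy3 (0.141%) and for 0 in the ratio and in Cy5, with 4092 (17%), 1154 and 1610 at an unadjusted p under 0.05. Without SH-42 replicate 3 each compound has a slide of its own, and compound and slide cannot be told apart: 822 features then passed in Cy3. The median size of those 822 differences was 0.33, and that of the same features within slide 2 was 0.05, with 506 of them (61.6%) of the same sign. The 822 were picked for passing on these arrays, and both comparisons use the same SH-80 arrays. These values are therefore a description and no test. With slide as a term, the compound difference rests on SH-42 replicate 3, and the slide difference on that array against SH-42 replicates 1 and 2. The unadjusted counts of 944 in the ratio, 2232 in Cy3 and 869 in Cy5 were then 247 (1.03%), 834 (3.46%) and 277 (1.15%), lower in every measure. The differences of that fit are those found within slide 2 alone, with an SD over features of 0.185 in the ratio. Their SE also takes in the spread between SH-42 replicates 1 and 2. The lower counts therefore do not show how much slide accounts for.

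**Figure D2:**
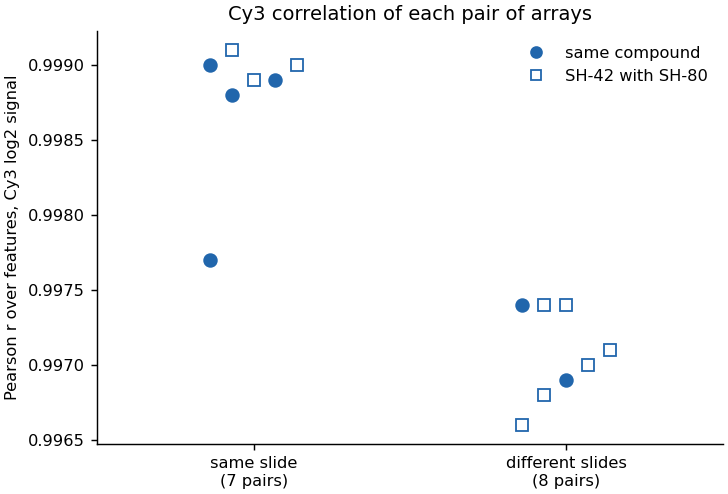
Pearson correlation of the Cy3 log2 signal over features (vertical axis) for each of the 15 pairs of arrays, split by whether the pair shares a slide; filled points join arrays of the same compound, open squares an SH-42 with an SH-80 array. All 7 pairs on the same slide lie above all 8 pairs on different slides, whether or not they share the compound.

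Since no gene passed the test, the genes of smallest p are given as values. In the ratio the first was Saa3, an acute-phase protein of inflamed tissue. Its log2 signal in Cy5 was 8.07, 7.41 and 7.83 on the SH-42 arrays and 6.56, 6.72 and 6.59 on the SH-80 arrays. All 3 SH-42 arrays were above all 3 SH-80 arrays, where it was not well above background in Cy5. The Cy5 signal was at least 2.21-fold higher on the SH-42 arrays (means 7.77 and 6.62, limma adjusted p = 0.691 in the ratio), counting each dim array at its own signal, which was above the lowest signal called well above background there. In Cy3 it was 7.57, 7.46 and 7.58 against 7.82, 7.66 and 7.62.

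Hmox1, heme oxygenase 1, breaks down heme and is a target of the oxidative stress factor NRF2. Its Cy5 signal was 10.72, 10.67 and 9.42 on the SH-42 arrays and 8.24, 8.24 and 8.50 on the SH-80 arrays, and the groups did not overlap. Its Cy3 signal was 8.76, 9.40 and 8.85 against 8.93, 8.77 and 8.83, and those groups overlapped. The ratio difference was -1.79 ± 0.34 (95% interval -2.6 to -0.97, limma adjusted p = 0.691), -1.44 without SH-42 replicate 1 and -1.09 within slide 2. A second Hmox1 probe gave -0.50. When each channel was quantile normalized on its own, the Cy3 signals of Hmox1 lay within 0.12 of each other and the Cy5 signals spread over 2.58, so that part of the Cy3 spread above came with the joint normalization.

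H1f4, a linker histone that packs chromatin, went the other way. Its Cy5 signal was 12.22, 11.86 and 12.07 on the SH-42 arrays and 12.72, 12.70 and 12.66 on the SH-80 arrays, with no overlap. In Cy3 it was 12.71, 12.73 and 12.63 against 12.58, 12.61 and 12.58. The ratio difference was 0.74 ± 0.12 (limma adjusted p = 0.691), 0.82 without SH-42 replicate 1 and 0.67 within slide 2.

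Among the other genes of smallest p were several that differed little from array to array. Tnpo1, which imports proteins into the nucleus, had ratios of -0.32, -0.28 and -0.29 on the SH-42 arrays and 0.21, 0.30 and 0.13 on the SH-80 arrays. Its difference was -0.51 ± 0.08, but a second probe of the gene gave 0.01, so the probes differ in sign. Dynlt3, a light chain of the motor dynein, had ratios of -0.26, -0.24 and -0.30 against 0.24, 0.27 and 0.12, a difference of -0.47 ± 0.08. Both genes had opposite ratio signs on all arrays of the 2 compounds, as did 360 of the 24087 features (1.49%), among the genes named here also H1f4, Hmox1, Prpf40b, Ebp and Cacna1f. Pdia3, an enzyme that folds proteins in the endoplasmic reticulum, had ratios of -0.72, -0.43 and -0.59 against 0.04, -0.08 and -0.07, a difference of -0.54 ± 0.10. Those 3 differences were -0.50, -0.48 and -0.47 without SH-42 replicate 1 and -0.51, -0.51 and -0.55 within slide 2, and their differences in Cy3 were 0.04, -0.02 and -0.04. Oas1g, of the interferon-induced antiviral family, and Gsdma3, a pore-forming gasdermin, complete the 8, and since neither was well above background in Cy3 on any array, no fold is given for them.

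**Figure D3:**
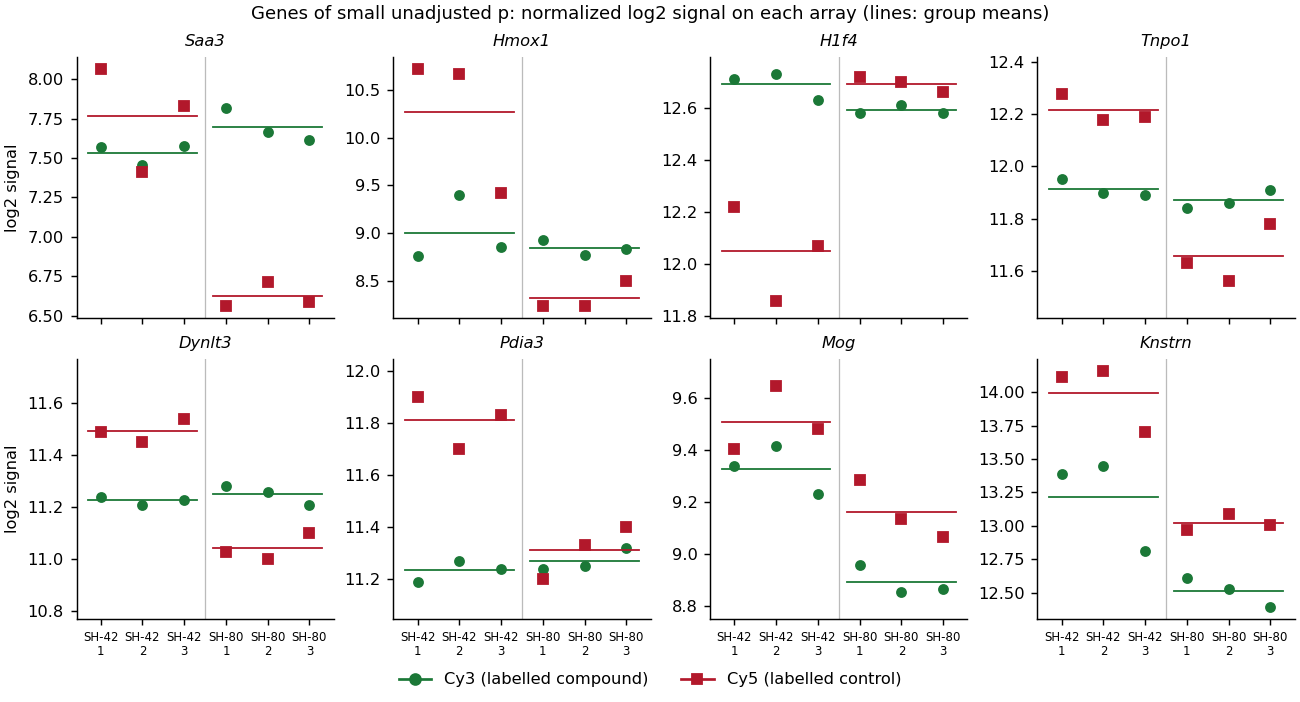
Normalized log2 signal (vertical axes, a scale for each gene) of 8 genes of small unadjusted p on each of the 6 arrays, green points for Cy3, red squares for Cy5, lines for group means. In Saa3, Hmox1, H1f4, Tnpo1, Dynlt3 and Pdia3 the red squares separate the compounds while the green means lie within 0.17 of each other, and in Mog and Knstrn both channels are higher on the SH-42 arrays. The green points of Saa3 and H1f4 do not overlap between the compounds either, as was so in Cy3 for 3941 of all features (16.4%).

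In Cy3 by itself the 8 genes of smallest p were Zfp36, Adgrg3, Mog, Cd5, Gstt2, Grin3b, Tmem106a and Trim21. Mog, a protein of the myelin sheath, had the largest difference of those above background in Cy3 on all arrays. Its Cy3 signal was 9.34, 9.42 and 9.23 on the SH-42 arrays and 8.96, 8.86 and 8.87 on the SH-80 arrays. The Cy3 difference of Mog was 0.43 ± 0.06 (limma adjusted p = 0.521), 0.43 without SH-42 replicate 1 and 0.34 within slide 2. Its Cy5 signal differed in the same direction, by 0.35 ± 0.10, so that the ratio difference was 0.09 ± 0.09 and turned its sign under 2 of 6 scalings. Zfp36, which destabilises cytokine mRNAs, and Adgrg3, an adhesion receptor of granulocytes, were not well above background in Cy3 on any array, nor was Tmem106a, so that no fold is given for these 3. Cd5, a T cell surface protein, was above background in Cy3 on 2 SH-42 arrays and on 0 SH-80 arrays, and was at least 1.25-fold higher on the SH-42 arrays. Gstt2 (-0.21 ± 0.03), a glutathione transferase, Grin3b (-0.21 ± 0.03), an NMDA receptor subunit, and Trim21 (0.19 ± 0.03), an antibody receptor inside cells, were above background on all arrays. Within slide 2 the differences of Gstt2, Grin3b and Trim21 had the same signs, at -0.22, -0.18 and 0.17.

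In Cy5 by itself the genes of smallest p included Knstrn, Prpf40b and Tifa beside Saa3, Tnpo1, H1f4, Dynlt3 and Pdia3. Knstrn, a protein of the mitotic spindle, was high in both channels on the SH-42 arrays: 14.11, 14.16 and 13.70 against 12.97, 13.09 and 13.01 in Cy5, and 13.39, 13.45 and 12.81 against 12.61, 12.53 and 12.39 in Cy3. Its differences were 0.96 ± 0.14 in Cy5 (limma adjusted p = 0.701) and 0.71 ± 0.17 in Cy3 (limma adjusted p = 0.521), and within slide 2 they were 0.67 and 0.30. Prpf40b, a splicing factor, differed by -0.60 ± 0.10 in Cy5 and by -0.17 ± 0.05 in Cy3. Tifa, an adaptor of the NF-kB pathway, differed by 0.56 ± 0.10 in Cy5 and by 0.16 ± 0.09 in Cy3. Without SH-42 replicate 1 these 2 differed in Cy5 by -0.55 and 0.52. In both, the groups did not overlap in Cy5, as was so for 3200 of all features (13.3%).

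The gene lists that follow hold the retina's cell types and the pathways of stress and immunity, and each is described by its counts and its median. None of the members of the 38 lists passed the test in any measure. The list medians in Cy3 lay between -0.11 and 0.04, and 34 of the 38 lists had a median larger in size in Cy5 than in Cy3. Over all features, the ratio difference was positive for 53.6%, with a median of 0.02, and it was positive for 50.2% without SH-42 replicate 1 and for 52.8% within slide 2. In the ratio, the groups did not overlap for 3252 features (13.5%).

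Genes of reactive glia and of the acute phase had lower ratios on the SH-42 arrays, with most of the size from SH-42 replicate 1. Of 22 measured gliosis genes, 22 had a negative ratio difference and 18 passed 1.5-fold (3.11% of all features were lower by as much), with a list median of -1.08. The median ratio of the list was -1.73, -0.05 and 0.96 on SH-42 replicates 1, 2 and 3, and 1.09, 0.64 and 0.92 on the SH-80 arrays. SH-42 replicate 1 was far below the rest, replicate 2 between, and replicate 3 among the SH-80 arrays. Without replicate 1 the list median was -0.41, and within slide 2 it was 0.19, with 13 of 22 genes positive. In Cy3 the list median was -0.03, and the interval lay inside 1.5-fold for 21 of the 22 genes (96.8% of all features). In the ratio it lay inside 1.5-fold for 0 of the 22 (75.2% of all features).

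Gfap, the filament protein of reactive glia, shows this array by array. Its Cy5 signal was 11.89, 10.21 and 8.78 on the SH-42 arrays and 8.84, 8.98 and 8.39 on the SH-80 arrays, so that SH-42 replicates 1 and 2 were high and replicate 3 lay among the SH-80 arrays. In Cy3 it was 9.92, 10.02 and 10.01 against 9.99, 10.06 and 10.03. The ratio difference was -1.6 ± 0.75 (95% interval -3.42 to 0.23, limma adjusted p = 0.691), -0.77 without SH-42 replicate 1 and -0.05 within slide 2.

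Serpina3n, a protease inhibitor of reactive astrocytes, had ratios of -1.94, 0.76 and 2.55 on the SH-42 arrays and 2.48, 2.26 and 2.88 on the SH-80 arrays. Its difference was -2.08 ± 1.05, -0.88 without SH-42 replicate 1 and 0.01 within slide 2. Ccl2, which draws monocytes, differed by -1.65 ± 0.67 in the ratio, while its Cy3 signal lay between 8.951 and 9.004 on all 6 arrays. Without SH-42 replicate 1 it differed by -0.91, and within slide 2 by -0.36. Lcn2, which binds iron-carrying siderophores, differed by -1.12 ± 0.65, and by -0.40 without that array and 0.22 within slide 2. Of 13 acute-phase genes 7 were measured, and all 7 had a negative ratio difference (median -1.12, -0.40 without SH-42 replicate 1, -0.05 within slide 2). Saa3 and Cp, the copper carrier ceruloplasmin (-1.36 ± 0.69), belong to it, and Cp was -0.56 without SH-42 replicate 1.

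Complement and microglia genes followed the same arrays. All 15 measured complement genes had a negative ratio difference, with a median of -0.84, -0.33 without SH-42 replicate 1 and 0.11 within slide 2, where 12 of 15 were positive. C3, the central component of complement, had Cy5 signals of 13.93, 11.17 and 9.75 on the SH-42 arrays and 10.05, 10.62 and 9.40 on the SH-80 arrays, and Cy3 signals between 12.83 and 12.96 on all 6. Its ratio difference was -1.65 ± 1.03, -0.50 without SH-42 replicate 1 and 0.27 within slide 2, and it was 0.01 after the ratios of each array were scaled to the same spread. C1qb, a chain of the first component, differed by -1.45 ± 0.88, and Serping1, which inhibits that component, by -1.41 ± 0.67; without SH-42 replicate 1 they differed by -0.42 and -0.73.

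Of 23 measured microglia markers, 21 had a negative ratio difference, with a median of -1.14, -0.33 without SH-42 replicate 1 and 0.26 within slide 2, where 21 of 23 were positive. Tyrobp, the signalling adaptor of microglial receptors, had Cy5 signals of 14.35, 10.96 and 10.03 on the SH-42 arrays and 10.25, 10.46 and 9.90 on the SH-80 arrays. The first of these stands alone, and the others overlap. Its ratio difference was -1.61 ± 1.03, -0.38 without SH-42 replicate 1 and 0.15 within slide 2. Aif1, which codes for the microglial marker Iba1, differed by -1.14 ± 0.69 and by -0.37 without that array. Gpnmb (-1.93 ± 1.22), a glycoprotein of lipid-laden phagocytes, was -0.55 without SH-42 replicate 1 and 0.14 after scaling of the ratios, and Lyz2 (-1.73 ± 1.1), lysozyme, was -0.43 without it.

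Markers of other leukocytes were measured for 8 of 12 genes, with a median ratio difference of 0.06 that turned its sign under 4 of 6 scalings. The neutrophil genes S100a8 and S100a9 stood out on SH-42 replicate 1, with Cy5 signals of 10.35 and 10.91, where the other arrays lay between 6.59 and 7.22 and between 7.05 and 7.58. Their ratio differences were -1.58 ± 0.89 and -1.23 ± 0.95, and -0.52 and -0.08 without that array. The T cell gene Cd8a was above background in Cy3 on 0 arrays.

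Other lists of immune response genes had medians smaller in size than those of the complement and microglia lists. Antigen presentation genes had a negative ratio difference in 14 of 14, with a median of -0.74, -0.20 without SH-42 replicate 1 and 0.14 within slide 2. H2-DMb1, which helps load peptides on MHC class II, differed by -1.20 ± 0.61, and Cd74, the invariant chain, by -0.95 ± 0.64; without SH-42 replicate 1 they differed by -0.52 and -0.27. Interferon response genes were negative in 23 of 24 (median -0.39; -0.18 without SH-42 replicate 1), and within slide 2 positive in 22 of 24 (median 0.18). Oasl2, an antiviral gene of that list, had Cy5 signals of 12.28, 11.92 and 10.61 against 11.08, 10.74 and 10.76, so that SH-42 replicates 1 and 2 were above the rest. Chemokine genes were negative in 9 of 13 (median -0.30; -0.23 without SH-42 replicate 1), and within slide 2 positive in 8 of 13 (median 0.07). Ccl8, a monocyte chemokine, had Cy5 signals of 8.50, 8.59 and 6.84 on the SH-42 arrays and 6.64, 6.84 and 6.44 on the SH-80 arrays, where 1 was well above background. It differed in the ratio by -1.06 ± 0.38, by -0.73 without SH-42 replicate 1 and by -0.19 within slide 2. Genes of NF-kB and cytokine signalling were negative in 15 of 16 (median -0.35; -0.09 without SH-42 replicate 1).

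**Figure D4:**
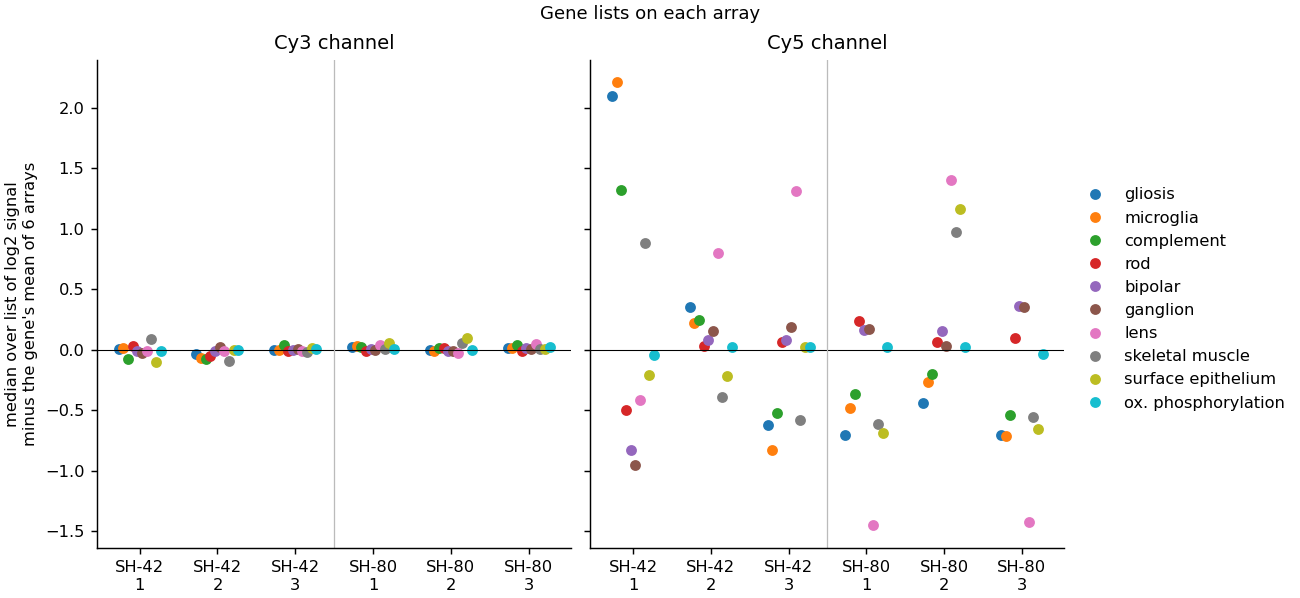
Median over 10 gene lists of the log2 signal, each gene centred on its mean over the 6 arrays (vertical axis), in Cy3 (left) and Cy5 (right) for each array. In Cy3 all medians lie close to 0. In Cy5, gliosis and microglia reach 2.1 and 2.21 on SH-42 replicate 1 while bipolar and ganglion lists reach -0.83 and -0.95 there, lens genes range from -1.45 to 1.40, and muscle and surface epithelium are high on SH-80 replicate 2.

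Targets of NRF2, which answer oxidative stress, had a negative ratio difference in 18 of 20 genes, with a median of -0.45, -0.10 without SH-42 replicate 1 and 0.02 within slide 2. Hmox1, described above, had the largest difference of the list. Mt2, a metallothionein, differed by -0.97 ± 0.64 and by -0.22 without that array. Ftl1, the ferritin light chain, differed by -0.94 ± 0.73 in the ratio, and by -0.04 without SH-42 replicate 1. On that array its Cy3 signal was 16.15, where the other 5 lay between 16.99 and 17.07.

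Neuronal genes had higher ratios on the SH-42 arrays, again with SH-42 replicate 1 apart from the rest. All 25 rod genes had a positive ratio difference, with a median of 0.27, which was 0.07 without SH-42 replicate 1, 0.05 within slide 2 and below 0 (-0.03) under 1 of 6 scalings. Pdc, phosducin, which binds the rod's transducin, had Cy5 signals of 15.9, 16.75 and 16.84 on the SH-42 arrays and 16.94, 16.86 and 16.91 on the SH-80 arrays. SH-42 replicate 1 was far below the rest, and the groups did not overlap. In Cy3 it was 17.16, 16.9 and 16.8 against 16.73, 16.77 and 16.76. The ratio difference of Pdc was 0.60 ± 0.33, 0.20 without SH-42 replicate 1 and 0.10 within slide 2. Gnat1 differed by 0.39 ± 0.24, and by 0.11 without SH-42 replicate 1. In Cy3, the intervals of all 25 rod genes lay inside 1.5-fold (96.8% of all features). In the ratio, those of 6 of the 25 did (75.2% of all features).

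Cone genes were positive in 13 of 15, with a median of 0.17, -0.01 without SH-42 replicate 1 and -0.02 within slide 2. Arr3, cone arrestin, differed by 0.42 ± 0.18, Gnat2, cone transducin, by 0.35 ± 0.27 and Kcne2, a potassium channel subunit, by 0.55 ± 0.47, and without SH-42 replicate 1 by 0.27, 0.05 and -0.02. Bipolar genes were positive in 17 of 17, with a median of 0.46, 0.14 without SH-42 replicate 1 and 0.13 within slide 2. Grm6, the glutamate receptor of ON bipolar cells, had Cy5 signals of 11.74, 13.07 and 12.98 on the SH-42 arrays and 13.07, 13.08 and 13.48 on the SH-80 arrays. Its ratio difference was 0.65 ± 0.38, 0.20 without SH-42 replicate 1 and 0.24 within slide 2. Gng13 and Pcp2, also of ON bipolar cells, differed by 0.63 ± 0.40 and 0.59 ± 0.34, and by 0.14 and 0.19 without that array. Grik1, the glutamate receptor of OFF bipolar cells, differed by 0.19 ± 0.25, by -0.08 without that array and by 0.13 within slide 2.

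Amacrine genes were positive in 14 of 15 (median 0.36; 0.05 without SH-42 replicate 1). Gad1 and Gad2, which make the transmitter GABA, had Cy5 signals of 11.33 and 9.55 on SH-42 replicate 1, and at least 12.80 and 10.95 on the other arrays. Their ratio differences were 0.54 ± 0.43 and 0.56 ± 0.40, and 0.005 and 0.06 without that array. Slc32a1, which loads GABA into vesicles, differed by 0.52 ± 0.31, and by 0.16 without that array, and its 2 probes differed in sign.

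Horizontal cell genes were positive in 8 of 10 (median 0.25; 0.08 without SH-42 replicate 1). The largest, Atp2b4, a calcium pump, differed by 0.65 ± 0.39, with a Cy5 signal of 5.54 on SH-42 replicate 2 against 8.67 to 8.91 on the other arrays and probes that differed in sign. Ganglion cell genes were positive in 14 of 15 (median 0.37, -0.01 without SH-42 replicate 1 and -0.07 within slide 2). Rbpms, an RNA-binding marker of ganglion cells, differed by 0.19 ± 0.13, Pou4f2, their transcription factor, by 0.60 ± 0.41 and Nefl, a neurofilament of their axons, by 0.48 ± 0.52. Without SH-42 replicate 1 these 3 differed by 0.06, 0.11 and -0.15. Synapse genes were positive in 19 of 22 (median 0.26; 0.05 without SH-42 replicate 1). Cacna1f, the calcium channel of the photoreceptor terminal, had ratios of 0.49, 0.11 and 0.07 on the SH-42 arrays and -0.17, -0.14 and -0.17 on the SH-80 arrays. The groups did not overlap, and the difference was 0.38 ± 0.13, 0.25 without SH-42 replicate 1 and 0.23 within slide 2.

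Müller cell genes were negative in 14 of 16 (median -0.39, and 0.07 within slide 2), and positive in 8 of 16 without SH-42 replicate 1 (median 0.02). Vim, vimentin, and Crym, a thyroid hormone binding crystallin, differed by -1.01 ± 0.57 and -1.06 ± 0.79, and by -0.50 and -0.15 without that array. Glul, the glutamine synthetase with which Müller cells clear glutamate, differed in the opposite direction. Its Cy5 signal was 14.66, 14.53 and 14.96 on the SH-42 arrays and 14.92, 15.10 and 15.28 on the SH-80 arrays, and its ratio difference was 0.40 ± 0.16, 0.35 without SH-42 replicate 1 and 0.08 within slide 2.

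Lens genes had lower ratios on the SH-42 arrays with and without SH-42 replicate 1. Of 24 measured genes, 23 had a negative ratio difference and 21 passed 1.5-fold, with a median of -1.18, -1.75 without SH-42 replicate 1 and -1.97 within slide 2. The median was -0.66 without SH-42 replicate 3, -0.52 and -0.56 without SH-80 replicates 1 and 3, and -2.22 without SH-80 replicate 2. The median ratio of the list was 1.5, 0.16 and -0.37 on the SH-42 arrays and 2.76, -0.74 and 2.67 on the SH-80 arrays. SH-80 replicates 1 and 3 were high and replicate 2 was the lowest of all 6, so that the arrays of SH-80 differed among themselves more than the groups did. In Cy3 the list median was -0.06, and the intervals of 22 of 24 genes lay inside 1.5-fold (96.8% of all features). In the ratio, that of 1 of 24 did (75.2% of all features).

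The 8 gamma crystallins, structural proteins of the lens fibre, had negative ratio differences in 8 of 8, with a median of -1.45. Crygc had Cy5 signals of 15.25, 16.77 and 16.51 on the SH-42 arrays and 13.75, 16.07 and 13.90 on the SH-80 arrays. SH-80 replicates 1 and 3 were the lowest, and SH-80 replicate 2 lay above SH-42 replicate 1. In Cy3 it was 17.65, 17.29 and 17.53 against 17.93, 17.60 and 17.79. The ratio difference was -1.88 ± 0.81 (95% interval -3.84 to 0.08, limma adjusted p = 0.691), -2.43 without SH-42 replicate 1 and -2.18 within slide 2, and its 3 probes gave -1.88 to -1.18. Gamma crystallin genes are close copies of one another, and a probe may bind more than 1 of them.

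Cryge, another gamma crystallin, had the same order of arrays: its Cy5 signal was 12.94, 14.13 and 13.71 against 11.67, 12.97 and 11.72, and its Cy3 signal lay between 15.12 and 15.22 on all 6. Its ratio difference was -1.45 ± 0.46. Cryga and Crygb differed by -1.63 ± 0.64 and -1.55 ± 0.59, and Lgsn, lengsin, a lens protein that is not a crystallin, by -1.63 ± 0.69. Without SH-42 replicate 1 these 4 differed by -1.80, -2.13, -2.05 and -2.23.

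Cryaa, alpha A crystallin, a chaperone of the lens, departed from this pattern, since its Cy3 signal varied as well. It was 17.65, 17.29 and 16.29 in Cy3 on the SH-42 arrays and 18.00, 15.67 and 17.90 on the SH-80 arrays, and 16.61, 17.12 and 18.43 against 15.80, 18.59 and 15.89 in Cy5. On each array where Cy5 was high, Cy3 was low, and with each channel quantile normalized on its own the Cy3 signal still spread over 2.15 and the Cy5 signal over 2.71. Its ratio difference was -0.74 ± 1.54, and -1.41 without SH-42 replicate 1. The sign turned without SH-42 replicate 3 (0.17), without SH-80 replicate 1 (0.14) and without SH-80 replicate 3 (0.05).

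**Figure D5:**
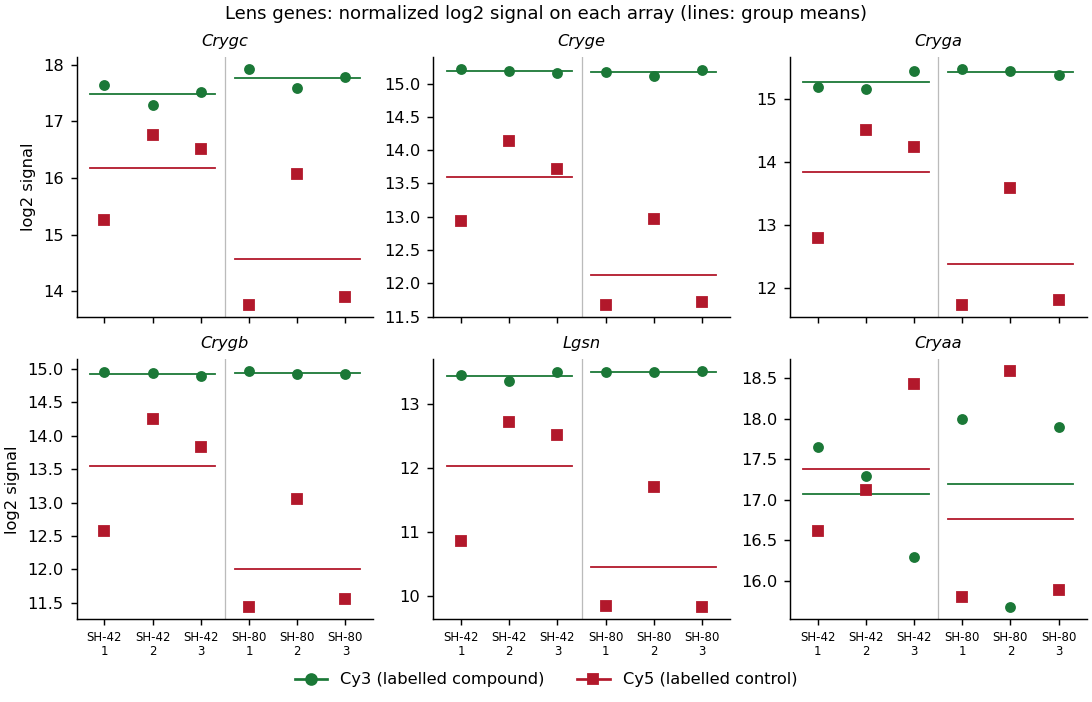
Normalized log2 signal (vertical axes, a scale for each gene) of 6 lens genes on each of the 6 arrays, green points for Cy3, red squares for Cy5, lines for group means. In the first 5 genes the Cy3 points of both compounds lie together while the Cy5 squares are lowest on SH-80 replicates 1 and 3, and in Cryaa the channels move in opposite directions from array to array.

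Markers of tissues around the retina also varied between arrays in Cy5, and their part in the results above was not tested. The skeletal muscle list had a centred Cy5 median of 0.88 on SH-42 replicate 1 and 0.97 on SH-80 replicate 2, and between -0.62 and -0.39 on the others, for 19 of 21 genes measured. Myh4, a fast myosin, had Cy5 signals of 10.95, 7.33 and 6.88 on the SH-42 arrays and 6.92, 11.64 and 7.49 on the SH-80 arrays, and was not well above background in Cy5 on 1 of the SH-42 arrays. Acta1, skeletal actin, differed by -0.62 ± 0.69 in the ratio and by 0.11 without SH-42 replicate 1, and Ckm, muscle creatine kinase, which was above background in Cy5 on 2 SH-42 arrays and 1 SH-80 array, by -0.23 ± 0.39 and 0.05. The ratio median of the muscle list was -0.05, 0.45 without SH-42 replicate 1, and turned its sign under 4 of 6 scalings.

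Surface epithelium genes, 11 of 13 measured, were high in Cy5 on SH-80 replicate 2, with a centred median of 1.16, and between -0.69 and 0.03 on the others. The keratins Krt5 and Krt15 had Cy5 signals of 12.16 and 12.45 on that array, and at most 8.23 and 8.09 on the rest. Their Cy3 signals were also highest there, at 9.15 and 8.83. The ratio median of the surface epithelium list was 0.12, and -0.03 without SH-42 replicate 1. Pigment epithelium genes had a ratio median of -0.17, -0.07 without SH-42 replicate 1 and -0.06 within slide 2, with Dct, an enzyme of melanin synthesis, at 14.44, 13.14 and 13.83 in Cy5 on the SH-42 arrays and 12.19, 14.67 and 12.17 on the SH-80 arrays. Red cell genes had a ratio median of -0.03, with 2 of 6 positive, and medians of 0.20 without SH-42 replicate 1 and 0.18 within slide 2, with 6 of 6 positive in each. Hba-a2, an alpha globin, had a Cy5 signal of 14.37 on SH-80 replicate 3 and 14.21 on SH-42 replicate 1, and at most 13.37 on the others.

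Vessel and matrix genes had negative medians that rested on SH-42 replicate 1. Endothelial genes had a ratio median of -0.17, and 0.04 without that array. The mural cell and smooth muscle list had a median of -0.14 and 0.06, with Acta2, smooth muscle actin, at -1.41 ± 0.71 and -0.69. Collagen and matrix genes had a median of -0.42 and -0.02. Within slide 2 the endothelial, mural and collagen list medians were 0.16, 0.145 and 0.05. Col1a1, a chain of collagen I, had Cy5 signals of 12.50, 8.80 and 7.76 on the SH-42 arrays and 8.32, 9.49 and 8.22 on the SH-80 arrays, and differed in the ratio by -1.1 ± 1.16, and by 0.24 without SH-42 replicate 1. Angiogenesis genes were negative in 17 of 18 (median -0.28, 0.01 without SH-42 replicate 1 and 0.155 within slide 2). Vegfa, the growth factor of vessels, differed by -0.02 ± 0.14, and by 0.13 without SH-42 replicate 1, with a sign that turned under 1 of 6 scalings.

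Lists of cell stress and growth had negative ratio medians. The unfolded protein response list had a median of -0.12, and -0.02 without SH-42 replicate 1, the p53 and apoptosis list -0.24 and -0.08, the cell cycle list -0.25 and -0.004, and the immediate early list -0.28 and -0.18, which was 0.02 within slide 2. Within slide 2 the unfolded protein response, p53 and cell cycle medians were 0.02, -0.0009 and 0.03. Egr1, an immediate early transcription factor, differed by -0.87 ± 0.36, and Fas, the death receptor, by -0.97 ± 0.47. Without SH-42 replicate 1 these genes differed by -0.47 and -0.50. Heat shock genes had a median of -0.03, and 21 of 24 had intervals inside 1.5-fold (75.2% of all features). One of them, the small heat shock protein Hspb1, had Cy5 signals of 13.24, 14.51 and 13.33 on the SH-42 arrays and 12.10, 13.00 and 12.36 on the SH-80 arrays. The groups did not overlap, and the ratio difference was -1.15 ± 0.36 (limma adjusted p = 0.691), -1.36 without SH-42 replicate 1 and -0.84 within slide 2. Hsph1, a large heat shock protein, differed by -0.03 ± 0.09, with a sign that turned under 3 of 6 scalings.

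All 26 measured genes of oxidative phosphorylation had intervals inside 1.5-fold in each of the 3 measures. Of all features, 75.2% did so in the ratio, 96.8% in Cy3 and 75.7% in Cy5. In that list 13 of 26 ratio differences were positive, with a median of 0.001, whose sign turned under 4 of 6 scalings. Ribosomal protein genes had a median of -0.13, with 28 of 34 negative, and the intervals of 32 of 34 lay inside 1.5-fold; the sign of the median turned under 1 of 6 scalings. Glycolysis genes were positive in 16 of 17, with a median of 0.22 and 0.11 without SH-42 replicate 1, and the sign of the median turned under 1 of 6 scalings (-0.10). The intervals of 13 of 17 lay inside 1.5-fold. Hk2, hexokinase 2, differed by 0.28 ± 0.10, Eno2, the neuronal enolase, by 0.28 ± 0.14 and Pgam1, a mutase of the pathway, by 0.28 ± 0.15, the last with a sign that turned under 1 of 6 scalings. Hypoxia response genes had a median of -0.03, and 0.01 without SH-42 replicate 1, with a sign that turned under 2 of 6 scalings, and 16 of 21 had intervals inside 1.5-fold. Sterol synthesis genes had a median of 0.03, with 17 of 24 positive, and a sign that turned under 1 of 6 scalings. Without SH-42 replicate 1 the median was -0.08, with 3 of 24 positive, and within slide 2 it was -0.10. The intervals of 15 of 24 lay inside 1.5-fold. Srebf2, a transcription factor of sterol synthesis genes, differed by -1.12 ± 0.63, by -0.37 without SH-42 replicate 1 and by 0.07 within slide 2. Ebp, an isomerase of late cholesterol synthesis, had ratios of -0.59, -0.22 and -0.02 on the SH-42 arrays and 0.03, 0.12 and 0.11 on the SH-80 arrays (difference -0.37 ± 0.15, -0.21 without SH-42 replicate 1). Actb, cytoplasmic actin, differed by -0.40 ± 0.33, and by -0.02 without SH-42 replicate 1. Slc10a1, a bile acid transporter of the liver, was bright on every array in both channels, and differed by 0.29 ± 0.16, and by 0.14 without SH-42 replicate 1, with a sign that turned under 2 of 6 scalings.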

How the data were processed

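Spot intensity was deposited as scanner output for each array; per the file headers it was extracted with Agilent Feature Extraction 11.0.1.1, where the submitters' processing notes name 9.3.2.1. The deposited value table holds log2 ratios of Cy5 over Cy3; its scaling step is not given in the sources used here, and it served as an alternative with its sign turned. Per the labels, Cy3 marks the compound and Cy5 the control.

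Median spot signals of the 43020 non-control spots (39429 probes, 66.1% with a symbol through RefSeq's gene table of GRCm38.p6) were corrected with normexp (offset 50), normalized by loess within arrays and, for single channels, by Aquantile between arrays. Spots flagged as outliers were left out. A probe was kept where at least 3 arrays had it well above background, in Cy3 or in Cy5 (9944 were removed, and 25 more had a missing value), and the brightest probe stood for a gene. Differences were tested with limma 3.58.1 (lmFit, eBayes, Benjamini-Hochberg over all features) in R 4.3.3. Matplotlib 3.10.9 (Python 3.11.15) drew the plots. The code was tested on simulated data. The labels do not tie control pools to arrays, and p-values measure the spread between arrays. The number of arrays limits the precision.

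Same-numbered arrays were the closest for replicate 3 only, and the main fits used no block. Fewer than 5 features passed the test in each measure, so named genes were the 8 of smallest p with a symbol, 20 set genes (1 of which is not reported here), and up to 3 members of each described list with the largest ratio difference; the gene lists and their members were chosen with earlier results of these data known. Scalings tried are other background corrections, normalizations and the deposited table; filters, array weights, slide, single arrays left out and probe handling were also varied.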

Additional observations from a re-analysis of the deposited data

Results flagged for a closer look

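Over the 6 Cy5 channels, 45 of 117 genes and 14 of 38 gene lists had 1 array whose gap to its nearest neighbour passed Dixon's 95% critical value; chance alone gives about 1 in 20. Many of the genes were chosen for a large difference or a small p, and genes of a list move together, so these counts are a description and no test. No difference between the compounds passed the limma test. These are values with no explanation.

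For 24 of the 45 genes, SH-42 replicate 1 was the array set apart, with the highest Cy5 log2 signal. Among microglia, complement and leukocyte genes these were Tyrobp (14.35), Gpnmb (14.26), Lyz2 (13.25), C1qb (12.5), Ccl3 (9.631), S100a8 (10.35) and S100a9 (10.91). Among vessel and matrix genes they were Mfsd2a (10.7), Cdh5 (9.002), Tagln (13.2), Cspg4 (8.979), Col1a1 (12.5) and Fn1 (14.03). Among genes of the cell cycle they were Birc5 (10.8), Mki67 (10.53) and Rrm2 (9.362). The others were Bag3 (11.4), Mt2 (16.22), Ftl1 (17.9), Rpl22 (15.39), Actb (16.9), Id1 (11.58), Adgrg3 (7.595) and Tmem106a (7.546).

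For 18 of the 45 genes the same array was set apart with the lowest Cy5 log2 signal, most of them of retinal neurons. Photoreceptor genes were Pdc (15.9), Gnat2 (13.88) and Kcne2 (11.2), and bipolar genes were Grm6 (11.74), Gng13 (13.27) and Pcp2 (14.37). Amacrine and horizontal genes were Gad1 (11.33), Gad2 (9.554), Slc32a1 (12.95), Slc4a3 (11.44) and Prox1 (9.085). Ganglion and synapse genes were Rbpms (8.246), Pou4f1 (9.785), Pou4f2 (8.435), Nefl (12.31), Cplx3 (11.64) and Pclo (11.09). Pgam1 (15.99) was the last.

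On other arrays, SH-42 replicate 2 was lowest for Atp2b4 (5.543), and SH-80 replicate 2 was highest for Krt5 (12.16) and Krt15 (12.45). Among the 14 lists, the centred Cy5 median was lowest on SH-42 replicate 1 for rod (-0.495), cone (-0.457), bipolar (-0.828), amacrine (-0.804), ganglion (-0.948) and synapse genes (-0.49). It was highest there for Müller (0.679), microglia (2.21), antigen presentation (1.45), endothelium (0.39), mural and smooth muscle (0.542), NRF2 (0.728), angiogenesis (0.643) and cell cycle genes (0.61).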

How the results depend on the processing

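The count of calls stayed at 0 in each measure for which an alternative that kept all arrays was run, with scale normalization and the deposited table run for the ratio only, and separate quantile normalization and no normalization between arrays for the single channels only. The replicate block is included (0 calls each; 707, 2227 and 495 features at an unadjusted p under 0.05 in the ratio, Cy3 and Cy5). Array weights raised those counts to 4121 (17.1%), 4820 (20%) and 4436 (18.4%), with smallest limma adjusted p values of 0.189, 0.182 and 0.0947. They gave SH-42 replicate 1 a weight of 0.146 in the ratio, 1.06 in Cy3 and 0.13 in Cy5. In the ratio, the deviations of same-numbered arrays correlated at -0.152, -0.43 and 0.181 for replicates 1, 2 and 3. The best other pairing gave 0.301, 0.344 and 0.00127, so the same number was the closest for replicate 3 only. Leaving out single arrays, and in 1 setting chosen after seeing the data SH-42 replicate 1 with SH-80 replicate 2, gave 0 to 20 calls in the ratio, 0 to 822 in Cy3 and 0 to 28 in Cy5. The 822 came without SH-42 replicate 3, and the 20 and 28, of which 13 and 15 are lens genes, from the setting chosen after seeing the data, which is given as a description only. The number of features past 1.5-fold moved more, and the cause was not tested. It was 1377 in the ratio and 258 in Cy3 with an offset of 0, and 2047, 697 and 2018 in the ratio, Cy3 and Cy5 from the processed signals. Array weights gave 421, 80 and 334, and slide as a fixed block or slide 2 alone gave 256, 24 and 255. The deposited table gave 1996 and scale normalization 388 in the ratio. In Cy3, median centring gave 24, each channel quantile normalized alone 22, a random slide block 12 and no normalization between arrays 3825, with 4893 in Cy5. Leaving out arrays gave 164 to 1764 in the ratio, 32 to 141 in Cy3 and 150 to 1760 in Cy5. Features with intervals inside 1.5-fold numbered 11715 in the ratio with median centring, 12205 from the processed signals, 12694 from the deposited table and 14170 with an offset of 0. They numbered 11516 in Cy3 and 6041 in Cy5 with no normalization between arrays. With every probe tested by itself they were 31468, 38096 and 32091 in the ratio, Cy3 and Cy5. Without normalization between arrays the median difference of all features was 0.13 in Cy3 and 0.18 in Cy5.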
